A study of Nicotiana tabacum with 18 samples.

Results

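The transcriptome of the F1 hybrid G70×GDH11 (H) was compared with that of its male parent GDH11 (HP2) in the middle leaves of tobacco, Nicotiana tabacum, sampled 70 days after transplanting to the field. A gene entered the comparison when it had an FPKM (fragments per kilobase of transcript, scaled to the mapped fragments of the library) of 1 or more in 3 or more of the 6 libraries, which kept 32954 of the 69500 genes. Each group had 3 libraries out of 18 in the series. H plants hold a G70 and a GDH11 genome copy, while HP2 plants hold GDH11 copies alone, and both groups were field-grown without any treatment that differed between them. Leaves of several plants in a plot were mixed for each sample, so a library is an average over plants and over every cell type of the leaf. The other groups, used here only to place genes of this comparison, were the female parent G70 (HP1), the second hybrid K326×GDH11 (L), the GDH11 plants grown as the parent of that cross (LP2), and its female parent K326 (LP1), again with 3 libraries each. The study set the crosses side by side because they differed in how far the hybrid's leaf K+ content exceeded that of its parents.

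In a hybrid, both parental copies of a gene are read in the same nucleus. A hybrid gene can therefore sit between the parents, at the level of one parent, or outside both, which breeders call additive, dominant and overdominant expression. Leaf K+ depends on channels that carry K+ across the plasma membrane, on exchangers and channels that load and unload the vacuole and the plastids, and on kinases that switch these transporters. Tobacco is an allotetraploid, so many of these genes come as near-identical copies from its progenitor species, and the split of reads between such copies is uncertain.

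The labels did not account for most of the spread among the 6 libraries, and H replicate 3 and HP2 replicate 1 stood apart from their groups. The first principal component held 55.8% of the variance, and it placed H replicates 1 and 2 at -66.8 and -59.1 beside HP2 replicate 1 at -67.5. On its other side lay H replicate 3 at 77.3 with HP2 replicates 2 and 3 at 52.3 and 63.8. Same-numbered libraries of H and HP2 thus lay together for replicates 1 and 3 but not for replicates 2. Their deviations from the group means correlated at 0.61, -0.23 and 0.72 for replicates 1, 2 and 3. What the replicate numbers stand for was not tested. Across genes, H replicate 3 correlated with HP2 replicate 3 at r = 0.962 and with H replicate 1 at r = 0.865. HP2 replicate 1 correlated with H replicate 1 at r = 0.947 and with HP2 replicate 2 at r = 0.876. In the deposited table of group values, H equalled the mean of replicates 1 and 2 and HP2 the mean of replicates 2 and 3 in all 69500 genes, within 0.01 FPKM. The counts of calls and the named genes of H against HP2 are therefore also given over the 4 libraries that remain without H replicate 3 and HP2 replicate 1.

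**Figure D1:**
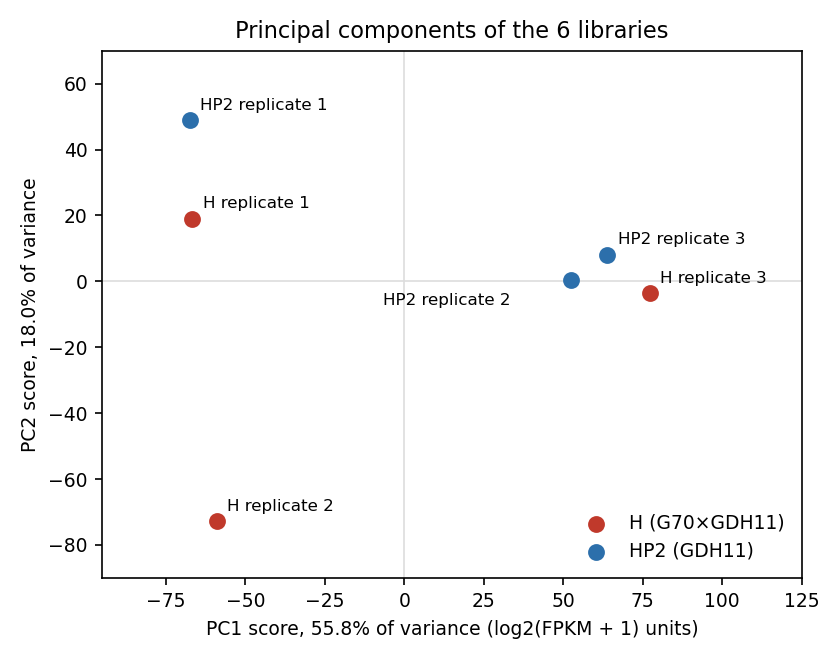
Scores of the 6 libraries on the first and second principal components of log2(FPKM + 1); each point is a library, red for H and blue for HP2. H replicate 3, at 77.3, lies with HP2 replicates 2 and 3, and HP2 replicate 1, at -67.5, lies with H replicates 1 and 2.

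Genes that separate G70 from GDH11 told every H library from every HP2 library. For this check 10 genes were taken that had 5 FPKM or more in every HP1 library and at most 0.1 FPKM in every LP2 library, without use of the H and HP2 values. All 3 H libraries, replicate 3 included, had 1 FPKM or more in 8 of these 10 G70 genes, and all 3 HP2 libraries, replicate 1 included, had it in 0 of 10. Of 7 genes chosen the opposite way, 7 reached 1 FPKM in each H and each HP2 library. The check did not tell H from the second hybrid, since each L library also had 1 FPKM or more in all 10 G70 genes, although 3 of the 10 were at most 0.1 FPKM in every library of its female parent K326. H replicate 3 and HP2 replicate 1 thus carried the transcripts that set their labelled group apart from the other, although their overall profile lay with the other group. What set them apart was not tested. The total of all FPKM ran from 769349.7 to 814335 per library, and the 10 most abundant genes took between 5.78% and 10.5% of it, highest in H replicate 3. No identifier in the files is paired with a leaf, vascular or root marker, so the tissue label could not be checked against markers, and in mixed leaf tissue fewer cells of a type and less RNA per cell cannot be told apart.

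Between H and HP2, 114 genes differed over all 6 libraries, 59 of them higher and 55 lower in H. These genes had an adjusted p of at most 0.05 (limma with Benjamini-Hochberg adjustment over all 32954 genes) and a log2 difference of at least 1, and they made up 0.346% of the genes tested. Higher genes were 0.179% and lower genes 0.167%. The log2 difference, always H minus HP2 on the log2(FPKM + 1) scale, ranged from 1.38 to 6.23 among the higher genes with a median of 2.40. Among the lower genes it ranged from -5.17 to -1.33 with a median of -2.35, while the median over all genes was -0.07. The H and HP2 libraries did not overlap in any of the 114 genes, against 7.61% of all genes tested; this follows in large part from the calls, which rest on the same values. At an unadjusted p of at most 0.05 with the same log2 limit, 214 genes (0.649%) were higher and 252 (0.765%) lower.

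Many of these genes were present in one group and nearly absent from the other. In 25 of the 59 higher genes every HP2 library had at most 0.1 FPKM and every H library at least 1 FPKM. In 31 of the 55 lower genes this was the other way round, with at most 0.1 FPKM in every H library and at least 1 FPKM in every HP2 library. The higher genes had a median group mean of 7.89 FPKM in H and 0.08 FPKM in HP2. The lower genes had a median group mean of 0.0367 FPKM in H and 7.69 FPKM in HP2. A gene that is silent in one group enters the comparison only through the other, and 43 of the higher genes passed the FPKM limit through H alone and 45 of the lower genes through HP2 alone. Since 1 is added before the logarithm, the log2 difference of such genes understates the change.

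The remaining calls included genes that were transcribed in every library. There were 22 called genes with 1 FPKM or more in all 6 libraries, 13 higher and 9 lower, with log2 differences between -3.43 and 2.95. Their adjusted p rested on which genes were tested with them. When only the 28830 genes with 1 FPKM or more in all 6 libraries were fitted, 2 genes were called, both lower in H, and the adjusted p of the 22 ranged from 0.0105 to 0.199.

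The call count depended on single libraries. It was 43 without H replicate 1, 46 without H replicate 2, 36 without HP2 replicate 2 and 44 without HP2 replicate 3, and all but 0 to 2 genes of each set were among the 114. Without H replicate 3 or without HP2 replicate 1 it was 78 and 76. A fit that took replicate numbers as blocks called 43 genes, all among the 114.

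**Figure D2:**
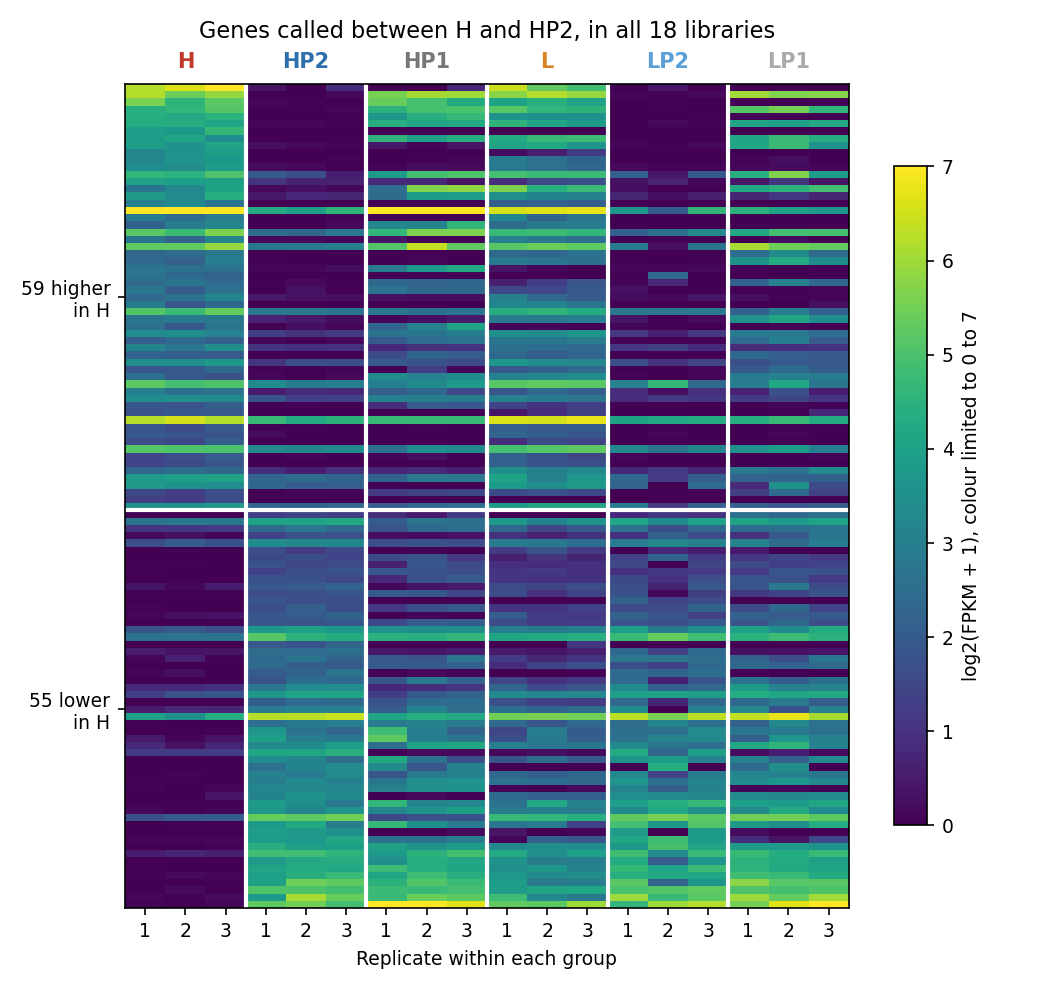
log2(FPKM + 1) of the 114 genes called between H and HP2 (one line per gene, ordered by log2 difference) in the 18 libraries, replicates 1 to 3 of each group from left to right; the colour scale stops at 7. In the 59 higher genes every H library exceeds every HP2 library, in the 55 lower genes the reverse, and L lies above LP2 throughout in 53 of the 59 and below it throughout in 24 of the 55.

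The largest rise was in Nitab4.5_0001013g0040. This gene had 73.4, 97.3 and 135.6 FPKM in H, against 0.29, 0 and 0.85 FPKM in HP2. Its level in the female parent G70 was 0, 0 and 0.71 FPKM, so that H lay far above both parents. The log2 difference between H and HP2 was 6.23 ± 0.32 (SE, adjusted p = 0.00112), and without H replicate 3 and HP2 replicate 1 it was 5.97. The second hybrid showed the same picture, with 85.6, 38.6 and 28.8 FPKM in L, against 0, 0.33 and 0 FPKM in LP2, and LP1 was listed at 0 in all 3 libraries. The identifiers hold a scaffold number before the letter g, and of the 6 tested genes with the same scaffold number none of the others was called, with log2 differences from -0.30 to 0.20. The SE of these neighbours reached 0.71, in Nitab4.5_0001013g0080, so the absence of a call does not show that they were unchanged.

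Nitab4.5_0006376g0030 had 73.1, 41.9 and 58.4 FPKM in H, against 0, 0 and 0.10 FPKM in HP2. The hybrid exceeded its male parent by a log2 difference of 5.80 ± 0.24 (SE, adjusted p = 0.000585), and 5.75 over the 4 libraries. Here the female parent stood where the hybrid did, with 47.2, 65.8 and 63.4 FPKM in G70. L averaged 62.0 ± 10.9 FPKM, LP2 0.087 ± 0.045 FPKM and LP1 54.95 ± 8.25 FPKM (SD, n = 3 each), so this transcript was present in every group except the GDH11 plants of both crosses. The other tested gene of this scaffold was also called higher, with 38.2, 38.5 and 58.2 FPKM in H, against 6.15, 6.00 and 7.44 FPKM in HP2. Both remaining genes of the scaffold were below the FPKM limit and were listed at 0 in all HP2 libraries.

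The largest fall was in Nitab4.5_0000363g0010. It had 0.05, 0 and 0.06 FPKM in H, against 37.4, 44.2 and 29.0 FPKM in HP2, a log2 difference of -5.17 ± 0.20 (SE, adjusted p = 0.000534), and also -5.17 over the 4 libraries. The female parent did not share this low level, having 141.2, 130.3 and 101.4 FPKM, so that H lay far below both parents. Neither did the other hybrid, with 38.5, 36.4 and 61.6 FPKM in L. The next 2 identifiers of the same scaffold were called lower as well, with between 0 and 0.15 FPKM in H, against 16.01 to 32.4 FPKM in HP2. Those neighbours had 16.3 to 29.4 FPKM in G70 and 7.69 to 17.1 FPKM in L. Of 18 tested genes on this scaffold only these 3, adjacent in identifier order, were called, and the others ran from -1.88 to 1.25 with a lowest adjusted p of 0.0609.

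Nitab4.5_0004610g0020 was also near 0 in H alone. It had 0.07, 0.03 and 0.16 FPKM in H, against 13.2, 67.4 and 40.1 FPKM in HP2, while G70 averaged 34.9 ± 8.11 FPKM (SD, n = 3). The log2 difference was -4.98 ± 0.54 (SE, adjusted p = 0.0208), and it was -5.66 without H replicate 3 and HP2 replicate 1. L averaged 14.1 ± 11.7 FPKM and LP2 41.3 ± 18.9 FPKM (SD, n = 3 each), a log2 difference of -1.66 that was not called by limma (unadjusted p = 0.0255, adjusted p = 0.791, and adjusted p = 0.447 with replicate numbers as blocks). The call depended on which libraries were fitted, and it held over the 4 libraries (adjusted p = 0.00459, limma). The adjusted p ranged from 0.0740 to 0.218 without H replicate 1, 2 or 3 or HP2 replicate 2 or 3. The HP2 libraries spread widely, and the part of this spread in the lost calls was not tested. The other tested gene of the scaffold was called lower too, with 0.01, 0.03 and 0.03 FPKM in H, against 12.7, 18.0 and 6.70 FPKM in HP2.

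**Figure D3:**
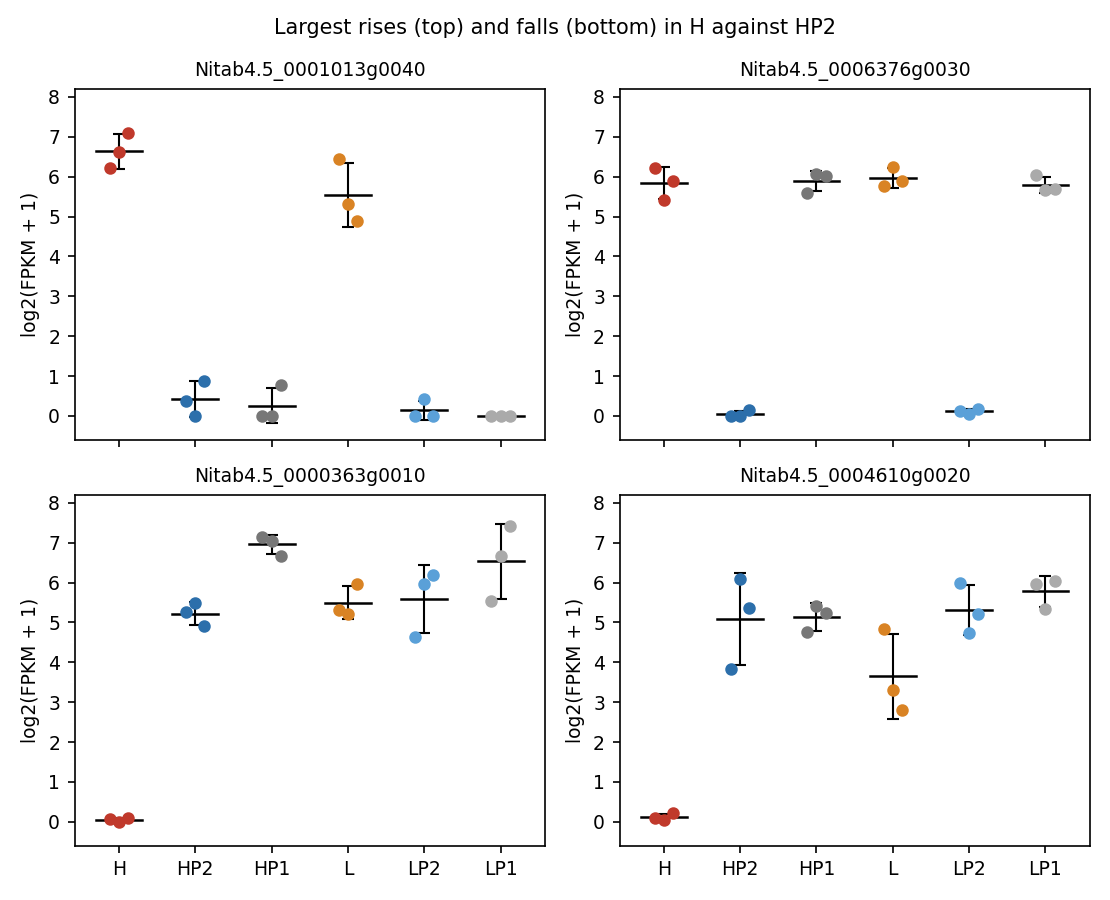
log2(FPKM + 1) of the genes with the largest rises (top) and falls (bottom) in H against HP2; points are libraries, horizontal lines group means and bars the SD (n = 3). Nitab4.5_0001013g0040 is high only in H and L among the 6 groups, Nitab4.5_0006376g0030 is low only in HP2 and LP2, and Nitab4.5_0000363g0010 and Nitab4.5_0004610g0020 are near 0 only in H.

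Some called genes shared a scaffold number. The 114 genes fell on 91 scaffolds, and 12 scaffolds held 2 or more of them, 35 genes in all. All 32954 genes tested fell on 9643 scaffolds. How much sharing an equal number of other genes would show was not tested. In 11 of those 12 the genes changed in one direction. The fullest scaffold had 5 called genes of 9 tested, all lower in H.

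The female parent divided the called genes into those where H matched G70 and those where H stood outside both parents. H and the parents do not form separate comparisons here, because the H and HP2 libraries are those that gave the calls. Among the 59 higher genes, G70 exceeded HP2 in every library in 21 without falling short of H, and lay between HP2 and H in 4. In the other 34 it was below every H library and overlapped or lay below HP2. Among the 55 lower genes the corresponding counts were 17, 3 and 35. Over all genes tested, G70 lay above every HP2 library in 2.66% and below every HP2 library in 5.68%, while it lay below every H library in 3.48% and above every H library in 3.42%. H lay above all libraries of both parents in 38 of the 59 higher genes, against 0.868% of all genes tested, and below both in 38 of the 55 lower genes, against 1.46%; these shares were fixed in part by the choice of genes on H and HP2.

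The silent genes were also followed in the female parent, as a description with no test. Over all genes tested, G70 had at least 1 FPKM in every library in 90.2% and at most 0.1 FPKM in every library in 0.212%. Of the 25 genes present in H and at most 0.1 FPKM in HP2, G70 had at least 1 FPKM in every library in 8 and at most 0.1 FPKM in every library in 14. In those 8 genes the median group mean was 18.96 FPKM in H, 0.0283 FPKM in HP2 and 18.9 FPKM in G70. Of the 31 genes present in HP2 and at most 0.1 FPKM in H, G70 had at least 1 FPKM in every library in 24, with a median group mean of 0.0133 FPKM in H, 7.52 FPKM in HP2 and 7.68 FPKM in G70. These 24 transcripts were thus at or near 0 in the hybrid and present in both of its parental lines. The GDH11 libraries of the other cross, LP2, had at most 0.1 FPKM throughout in 23 of the 25 genes silent in HP2. They had at least 1 FPKM throughout in 20 of the 31 genes present in HP2. The LP2 shares over all genes tested were not worked out, so no conclusion is drawn from these counts.

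The second hybrid, which shares the male line but none of the libraries, was compared with its own GDH11 plants in the same genes. Between L and LP2, 32312 genes were tested and 49 (0.152%) called, of which 47 (0.145%) were higher and 2 (0.00619%) lower in L. Of the 59 genes higher in H, 49 were tested in L against LP2, and 31 of them were called higher there while 0 were called lower. With an unadjusted p all 49 were higher, against 1.44% of all genes. A gene near 0 in LP2 passes the FPKM limit only through L. The counts and the median log2 difference of these 49 were therefore fixed in part by that limit. Of the 55 genes lower in H, 51 were tested, 1 was called lower in L, and 13 were lower with an unadjusted p, against 0.922% of all genes. The difference of L minus LP2 was negative in 47 of the 51, against 27.1% of all genes. The median log2 difference of L minus LP2 was 2.46 over the 49 genes and -0.65 over the 51 genes, and it was 0.23 over all genes tested in that comparison.

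The L calls were less firm than those of H. A fit that took replicate numbers as blocks called 0 genes between L and LP2 by limma, although 2318 genes (7.17%) had an unadjusted p under 0.05. All 49 higher genes stayed higher in this fit by the unadjusted p, against 1.94% of all genes, a count again fixed in part by the FPKM limit. The number called between L and LP2 was 0 without L replicate 2, 11 without L replicate 3 and 24 without L replicate 1. It was 1 without LP2 replicate 1, 1 without LP2 replicate 3 and 46 without LP2 replicate 2. In that last fit 28 of the 49 genes were called higher and 4 of the 51 genes lower. In level, all L libraries lay above all LP2 libraries in 53 of the 59 higher genes, against 12.1% of all genes tested between H and HP2. They lay below all LP2 libraries in 24 of the 55 lower genes, against 2.65%.

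Both hybrids left the range of their own parents in part of these genes. H and L each exceeded every library of both of their parents in 25 of the 59 higher genes, against 0.337% of all genes tested. Both lay below every library of their parents in 12 of the 55 lower genes, against 0.206%. Nitab4.5_0001013g0040 was among the higher ones. The shares were fixed in part by the choice of the genes on H and HP2. In the label check, too, 3 genes present in every L library were at most 0.1 FPKM in every LP1 and LP2 library, and the part of the plant material in these counts was not tested.

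A direct test of the difference between the hybrid effects, (H - HP2) - (L - LP2), was fitted without replicate blocks. It called 23 of 34144 genes (0.0674%), 4 higher (0.0117%) and 19 lower (0.0556%). Among them were 4 of the 59 higher genes and 12 of the 55 lower genes, a count that shares its H and HP2 libraries with the choice of the genes. Nitab4.5_0000363g0010 was one of the 12. Without H replicate 3 and HP2 replicate 1, 8 genes were called in this test, 2 of them among the 59 and 2 among the 55.

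Leaving out H replicate 3 and HP2 replicate 1 raised the number of called genes to 915 (2.78%), with 357 (1.08%) higher and 558 (1.69%) lower in H. All 114 genes were among them. The share of all genes with an unadjusted p under 0.05 was 22.8% over these 4 libraries and 3.80% over 6. The pair of libraries that this fit did not use gave the opposite direction for most of the 915 genes. That was fixed in part by the choice of the pair, whose overall profiles lay with the other group. H replicate 3 exceeded HP2 replicate 1 in 96 of the 357 higher genes, and it lay below HP2 replicate 1 in 105 of the 558 lower genes. Among the 801 genes called over the 4 libraries alone, these counts were 37 of 298 and 50 of 503. The median log2 difference of the 357 genes was 1.90 over the 4 libraries and -1.74 in the unused pair. For the 558 genes these medians were -1.91 and 1.61.

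For the 114 genes the direction in this pair was fixed by the choice, since its values were part of the fit over 6 libraries. The count of 915 was also sensitive to scaling, at 253 genes after median-of-ratios scaling and 634 after quantile scaling.

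**Figure D4:**
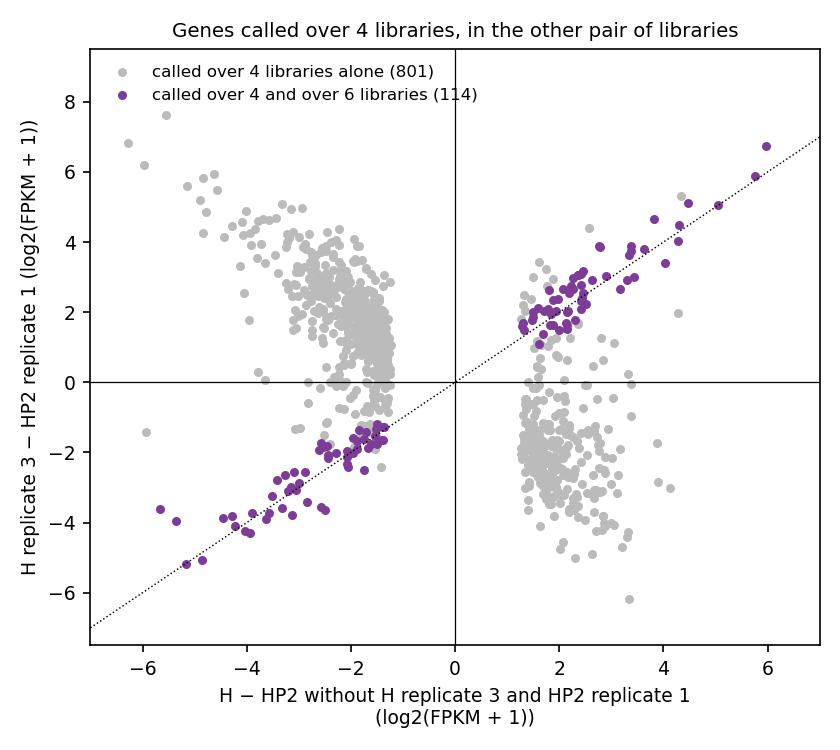
Each point is one of the 915 genes called without H replicate 3 and HP2 replicate 1, with its log2 difference over those 4 libraries on the horizontal axis and H replicate 3 minus HP2 replicate 1 on the vertical axis, both in log2(FPKM + 1); the dotted line marks equal values. H replicate 3 exceeds HP2 replicate 1 in 96 of the 357 genes on the right. It lies below HP2 replicate 1 in 105 of the 558 on the left. The direction of the 114 genes also called over 6 libraries is fixed by their choice. That of the other genes is fixed in part by the choice of this pair.

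None of the K+ transport genes was called. The list holds 26 identifiers under 11 gene names, and 24 passed the FPKM limit. Over 6 libraries 0 were called by limma and 0 had an unadjusted p under 0.05, against 3.80% of all genes tested. The log2 difference was positive in 6 and negative in 18, where 61.8% of all genes were negative, with a median of -0.17 beside -0.07 for all genes. The 95% interval held 0 in all 24 and stayed within -1 to 1 in 9, or 37.5%, against 64.3% of all genes tested. In 23 of the 24 genes H replicate 3 was nearer to HP2 replicates 2 and 3 than to the other H replicates, against 75.8% of all genes. In 18 of the 24 HP2 replicate 1 was nearer to H replicates 1 and 2 than to the other HP2 replicates, against 58.1% of all genes.

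Over the 4 libraries 0 of these genes were called by limma as well, although 13 had an unadjusted p under 0.05, against 22.8% of all genes. With the unadjusted p 2 were higher, against 5.26% of all genes, and 5 lower, against 5.81%. The lowest adjusted p was 0.0671. The median log2 difference was then -0.40, beside -0.11 for all genes.

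The channels of the plasma membrane come from the KAT1/2, GORK and AKT2 families. The KAT1/2 genes encode inward channels, known in Arabidopsis from guard cells. Nitab4.5_0005812g0020, a KAT1/2 gene, had 3.23, 5.10 and 8.62 FPKM in H, against 4.34, 9.58 and 10.5 FPKM in HP2, and the groups overlapped. The 4 tested KAT1/2 genes had log2 differences from -0.46 to 0.09 over 6 libraries and from -1.12 to -0.54 over 4. The 2 others were too low to test, with at most 1.13 FPKM in H and 2.18 FPKM in HP2. GORK, the outward channel through which guard cells release K+ in Arabidopsis, had 3.52, 6.29 and 7.06 FPKM in H, against 4.92, 15.7 and 7.81 FPKM in HP2 for Nitab4.5_0000777g0090. Both GORK genes had a log2 difference of about the same size, -0.57 and -0.56 over 6 libraries (lowest unadjusted p = 0.112), and -1.08 and -0.91 over 4.

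AKT2 is a weakly rectifying channel, known in Arabidopsis from the phloem. Nitab4.5_0001744g0070 had 155.2, 80.0 and 42.6 FPKM in H, against 197.4, 56.2 and 45.5 FPKM in HP2. Replicate 1 was highest in each group, and H and HP2 overlapped. H exceeded HP2 by a log2 difference of 0.02 with a 95% interval from -1.61 to 1.65 over 6 libraries, and 1.13 over the 4 without H replicate 3 and HP2 replicate 1 (adjusted p = 0.158). The other AKT2 gene, Nitab4.5_0000816g0130, had 20.5, 19.7 and 27.1 FPKM in H, against 25.3, 29.2 and 27.5 FPKM in HP2, a log2 difference of -0.28 over 6 libraries and -0.47 over 4.

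At the vacuole, the TPK channels release K+ into the cytosol, TPC1 is the slow cation channel of the same membrane, and NHX1 exchanges protons for Na+ or K+. The TPK gene Nitab4.5_0005906g0010 had 2.50, 2.44 and 10.7 FPKM in H, against 2.82, 6.25 and 10.7 FPKM in HP2. H replicate 3 was level with the highest HP2 library here, and the log2 difference was -0.40 over 6 libraries and -1.41 over 4 (adjusted p = 0.0673). The TPC1 genes had log2 differences of -0.05 and -0.04 over 6 libraries and -0.24 and -0.20 over 4, with 20.04 ± 2.95 FPKM in H, against 20.5 ± 1.31 FPKM in HP2, for Nitab4.5_0000512g0020 (SD, n = 3 each). The NHX1 genes had log2 differences of 0.09 and 0.16 over 6 libraries and 0.44 and 0.65 over 4 (lowest adjusted p = 0.315).

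The KEA exchangers swap K+ for protons across membranes of the plastids and the secretory pathway. In Arabidopsis KEA1 and KEA2 sit in the inner envelope of the chloroplast, KEA3 in the thylakoid and KEA5 in the Golgi network. Nitab4.5_0001093g0060, a KEA3 gene, had 17.2, 19.8 and 7.20 FPKM in H, against 19.5, 10.7 and 7.84 FPKM in HP2. H replicate 3 was the lowest of the 6 libraries and HP2 replicate 1 among the highest. The log2 difference was 0.18 over 6 libraries, with a 95% interval from -0.91 to 1.28, and 0.94 over 4 (adjusted p = 0.104). The KEA1/2 genes differed by -0.03 and -0.19 over 6 libraries and, with the sign turned, by 0.27 and 0.15 over 4. The KEA5 genes differed by -0.18 and -0.26 over 6 libraries and -0.21 and -0.32 over 4.

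The CIPK kinases are activated by calcium sensor proteins, and in Arabidopsis CIPK6 acts on AKT2. Nitab4.5_0006408g0010, a CIPK6 gene, had 34.4, 38.3 and 182.0 FPKM in H, against 61.5, 79.5 and 116.5 FPKM in HP2. H replicates 1 and 2 lay below all HP2 libraries and H replicate 3 above all of them. The second CIPK6 gene, Nitab4.5_0004815g0040, had 46.6, 72.1 and 276.5 FPKM in H, against 55, 134.0 and 162.0 FPKM in HP2. Their log2 differences were -0.41 and -0.12 over 6 libraries and -1.38 and -1.33 over 4, where neither was called (adjusted p = 0.0671 and 0.0849). The CIPK5 genes split, Nitab4.5_0005171g0010 at 0.06 and Nitab4.5_0000462g0210 at -0.56 over 6 libraries, and 1.12 and -0.75 over 4.

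**Figure D5:**
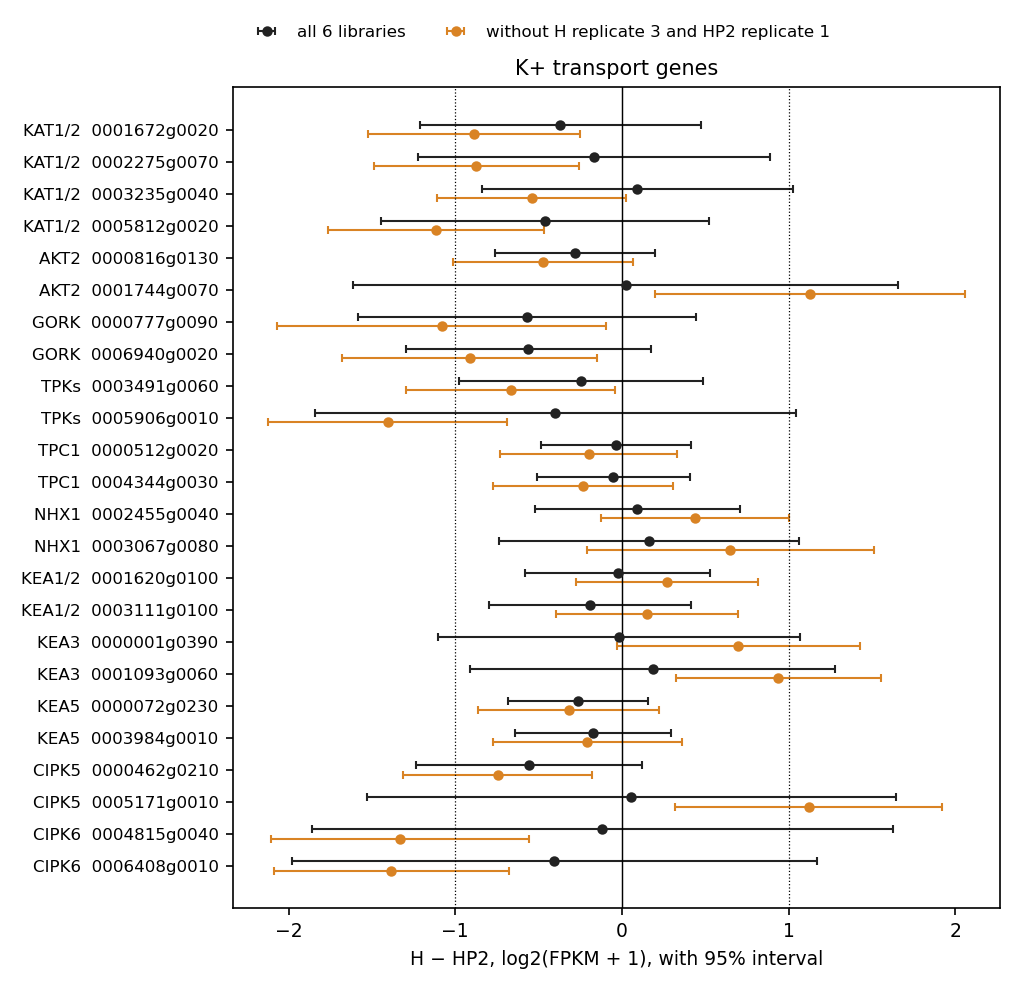
Log2 difference of H minus HP2 with its 95% interval for the 24 tested K+ transport genes, by family, over all 6 libraries (black) and without H replicate 3 and HP2 replicate 1 (orange); dotted lines mark -1 and 1. All 24 black intervals hold 0, and the median of the points is -0.17 in black and -0.40 in orange.

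Another list of 9 genes was fixed by the qRT-PCR primers, and for these a stretch of sequence is known. The study picked them among its own differentially expressed genes, so they are not independent evidence of a direction. Their primers are shown for AKT2, which is on both lists, and for the genes with the largest log2 difference and the lowest adjusted p over 4 libraries, because these sequences bound the part of each transcript that was amplified; capitals mark the last 5 bases at the 3′ end, where extension starts.
Nitab4.5_0001744g0070 forward: gtctgttaatttgctaactgTTGCT
Nitab4.5_0001744g0070 reverse: cagtggggttcttccTTGGG
Nitab4.5_0000063g0110 forward: ggctgcaatgtgacagGAATG
Nitab4.5_0000063g0110 reverse: cgtccattgttccctTCACT
Nitab4.5_0009879g0010 forward: tgccaatgccaattccATTCC
Nitab4.5_0009879g0010 reverse: tccatgctgtggtgaACCTG

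Over 6 libraries 0 of the 9 genes were called by limma and 0 had an unadjusted p under 0.05, against 0.346% and 3.80% of all genes. Of their log2 differences 8 were above 0 and 1 below, where 38.2% of all genes were above 0. Over 4 libraries 0 were called too, against 2.78% of all genes, and 8 had an unadjusted p under 0.05, against 22.8%. By the unadjusted p 5 were higher and 1 lower, against 5.26% and 5.81% of all genes. Nitab4.5_0000063g0110 had 175.3, 267.7 and 21.8 FPKM in H, against 146.6, 66.8 and 32.0 FPKM in HP2. The lowest library of all was H replicate 3, and HP2 replicate 1 came close to H replicate 1. On the log2 scale H exceeded HP2 by 0.57 with a 95% interval from -1.83 to 2.97 over 6 libraries, and 2.20 over 4 (adjusted p = 0.0607). Nitab4.5_0009879g0010 had 31.8, 35.1 and 14.7 FPKM in H, against 37.0, 14.9 and 12.8 FPKM in HP2. HP2 replicate 1 was the highest library, and the log2 difference was 0.38 over 6 libraries and 1.21 over 4 (adjusted p = 0.0557).

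The gene of this list that came nearest to a difference over 6 libraries was Nitab4.5_0002239g0050, with 10.5, 5.55 and 7.11 FPKM in H, against 6.25, 3.11 and 4.44 FPKM in HP2. The log2 difference was 0.64 over 6 libraries and 0.88 over 4, and the 95% interval over 6 libraries, from -0.09 to 1.36, held 0 (unadjusted p = 0.0749). The single gene with a negative value, Nitab4.5_0001800g0020, had 9.62, 3.83 and 18.3 FPKM in H, against 10.7, 19 and 16.5 FPKM in HP2. It differed by -0.68 over 6 libraries and -1.38 over 4.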

How the data were processed

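RNA of middle leaves was sequenced by the study as paired-end libraries on an Illumina instrument. The deposited table holds FPKM, which the authors obtained with RSEM after mapping to the K326 genome; the methods name TopHat2, and the submitters' processing notes name HISAT2 and StringTie, with versions not given in the sources used here. FPKM carry no read depth, so no counting interval could be given, and the count model of the study was not applied to them.

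FPKM columns were matched to samples through their labels (0 columns unmapped). limma 3.58.1 in R 4.3.3 was fitted to log2(FPKM + 1) of the H and HP2 libraries with an intensity trend, over genes with 1 FPKM or more in 3 or more libraries. Genes were called at an adjusted p of at most 0.05 (Benjamini-Hochberg) and a log2 difference of at least 1. The fit was also run on simulated data with independent noise for each gene and known changes in more abundant genes. Those data held no component shared by libraries and no changed gene near 0 in a group. The run therefore cannot vouch for calls of that kind. P-values measure the spread between these plot samples only. Genes named by identifier were the 2 largest rises and 2 largest falls among called genes whose groups do not overlap and whose higher group averages at least 10 FPKM, besides the K+ and qRT-PCR lists. The members and lists were chosen with earlier results of these data known.

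The paper describes a random block design in the field, but replicate numbers are not stated to mark its blocks. Deviations of same-numbered L and LP2 libraries correlated at 0.55, 0.26 and 0.23. The main fits took no blocks. Fits with replicate numbers as blocks are given beside H against HP2 and L against LP2. Alternatives were another pseudocount (0.1), other filters, scalings, thresholds and library sets, a replicate block, and leaving out each replicate. Identifiers had no match in the gene table at hand, so no positions, promoters or proteins are given. Columns of the authors' comparisons were not used.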

Additional observations from a re-analysis of the deposited data

Results flagged for a closer look

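Nitab4.5_0000363g0010 differed between the hybrids in its change against the male line. H minus HP2 was -5.17 and L minus LP2 was -0.09 on the log2(FPKM + 1) scale, and the difference between these effects was -5.08 ± 0.53 (SE, adjusted p = 0.00514, limma over all genes tested). All 3 H libraries were below all 3 HP2 libraries, which was a condition for naming this gene, while the L and LP2 libraries overlapped. The test of the difference shares its H and HP2 values with that choice. Without H replicate 3 and HP2 replicate 1 the difference between the effects was -5.07 ± 0.66 (SE), and it was then not called (adjusted p = 0.0793, limma).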

How the results depend on the processing

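For H against HP2 the 114 calls (59 higher, 55 lower) stayed within 1.5 times with a pseudocount of 0.1, without a filter, after median-of-ratios or quantile scaling, in a fit over 9 libraries and with a log2 limit of 2. They were 188 (98 higher, 90 lower) in a fit over 18 libraries, 2 (0 and 2) when 1 FPKM was required in all 6 libraries, 466 (214 and 252) with the unadjusted p and 915 (357 and 558) without H replicate 3 and HP2 replicate 1. With LP2 in place of HP2 they were 67 (24 lower). Leaving out single libraries gave 36 to 78 calls, 17 to 45 higher and 19 to 41 lower. Deviations of same-numbered H and HP2 libraries correlated at 0.61, -0.23 and 0.72, and the main fit took no blocks. The replicate block gave 43 calls (21 and 22). The 915 calls became 253 (121 and 132) after median-of-ratios scaling, which moved the median of all genes from -0.11 to 0.01, 634 (298 and 336) after quantile scaling, and 3650 (1734 and 1916) with the unadjusted p; these 3 settings were added after the data were seen. L against LP2 gave 49 calls (47 and 2), 0 with the replicate block (0 and 0), 764 (466 and 298) with the unadjusted p, and 0 to 46 without single libraries (0 to 39 higher, 0 to 7 lower). The test of the difference gave 23 calls (4 and 19), 8 (2 and 6) without both libraries and 867 (350 and 517) with the unadjusted p. For H against HP2 no K+ or qRT-PCR gene was called with the adjusted p, or over 6 libraries with the unadjusted p; over 4 libraries the unadjusted p passed 2 higher and 5 lower K+ genes and 5 higher and 1 lower qRT-PCR genes. None of the 4 called genes named here changed sign. The sign changed in some setting for 28 genes uncalled with the adjusted p, of which 11 passed the unadjusted p over 4 libraries. The cause of these shifts was not tested. FPKM carry no depth, so the limit that depth sets could not be given.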
